A study of Mus musculus with 18 samples.

Results

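Genes that differed between *Cldn2*KO and WT colon in one direction under every treatment were examined, in all 18 libraries of the series. Claudin-2 is a tight junction protein that forms a paracellular channel for cations and water. There were 9 libraries from claudin-2 knockout (*Cldn2*KO) mice and 9 from WT littermates, all on a C57BL/6 background. The study's methods call the mice matched for age and sex. In each genotype, 3 libraries came from untreated controls, 3 from mice in recovery after dextran sulfate sodium (DSS) colitis, an injury of the epithelium, and 3 from mice given AOM/DSS, in which a single dose of the carcinogen azoxymethane at 10 mg/kg is followed by 3 cycles of 2.5% DSS. The ages of the mice, the DSS dose of the recovery groups and the way the allele was made are not given in the sources used here. Nor is it stated that the libraries of a group came from separate litters or cages, so that the p-values measure only the spread between these libraries.

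The genotype difference was fitted over all 18 libraries with treatment as an additive term. Of 16937 genes tested, 141 passed at an adjusted p under 0.05, or 0.832%. In *Cldn2*KO 118 of these were lower (0.697% of the genes tested) and 23 were higher (0.136%). At an unadjusted p under 0.05 there were 2707 genes (15.98%), the share against which the unadjusted counts of gene lists are read. The split varied with the fit, with 438 lower and 173 higher by DESeq2, 382 and 217 by limma-voom, and 112 and 7 with sex-linked expression as a covariate. All 141 had a log2 fold change of one sign in controls, recovery and AOM/DSS, as had 5347 of all genes tested (31.6%). The common difference and its parts come from the same libraries, so the shared sign is a description and not a second test. Just inside the threshold were *Cd28*, *BC064078* and *Epsti1*, with adjusted p-values of 0.0485, 0.0490 and 0.0496. Just outside were *Rffl*, *Sipa1l3* and *Cep170b*, at 0.0511, 0.0537 and 0.0537.

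Many of the lower genes belong to the response to interferon. Interferon-γ, a cytokine of T and NK cells, acts on its target genes largely through a DNA element called GAS. Type I and type III interferons act through an element called ISRE, which is bound by a complex that holds IRF9. The targets include GTPases that act on the vacuoles of intracellular pathogens (the IRG and GBP families), antiviral proteins, and the genes that present antigen on MHC class I and class II. In the intestine, both the epithelium and immune cells express these genes. The libraries are of bulk tissue, in which fewer cells of a type and less RNA per cell cannot be told apart.

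Promoters of the interferon and MHC genes were searched for these elements. The windows are RefSeq sequences of GRCm38.p6 from 250 bases before to 50 bases after a start. The letters searched were GAAA, any 2 bases and GAAA again for the ISRE core, and TTCNNNGAA for GAS, on both strands. Of 25 lower genes that the naming rule took from these lists, 16 had a window, 7 of the 16 held the ISRE core and 5 held GAS as well. Among all genes with a window, 3.99% held the ISRE core and 9.55% held GAS. The 5 genes with both were *Tgtp1*, *Tgtp2*, *Gm12185*, *Irgm2* and *Gbp7*, and *Irgm1* and *B2m* held the ISRE core alone. The genes come from lists named for interferon or MHC, of which the uncalled members were not searched, and *Tgtp1*, *Tgtp2* and *Gm12185* are related genes, so nothing is read from the difference to these shares. A match is a description of letters and not a site of binding. The windows of 5 of the 7 genes are shown, *Tgtp2* and *Irgm2* for the equal spacing of their elements and the others for the arrangements they differ in, read 5′ to 3′ on the strand of the gene with the matches in capitals.
*Tgtp2* (chr11:49064163-49064462, minus strand): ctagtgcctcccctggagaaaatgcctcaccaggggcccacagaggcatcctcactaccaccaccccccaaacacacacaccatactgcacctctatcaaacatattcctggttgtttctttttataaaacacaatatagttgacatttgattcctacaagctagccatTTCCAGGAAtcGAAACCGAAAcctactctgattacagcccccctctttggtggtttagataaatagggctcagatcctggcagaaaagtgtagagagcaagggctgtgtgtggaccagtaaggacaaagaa
*Irgm2* (chr11:58214727-58215026, plus strand): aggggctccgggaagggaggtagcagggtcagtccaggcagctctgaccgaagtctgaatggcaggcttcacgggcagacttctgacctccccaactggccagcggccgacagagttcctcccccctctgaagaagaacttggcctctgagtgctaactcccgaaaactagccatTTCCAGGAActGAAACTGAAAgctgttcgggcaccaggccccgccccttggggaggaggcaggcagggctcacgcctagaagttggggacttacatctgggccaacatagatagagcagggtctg
*Irgm1* (chr11:48871371-48871670, minus strand): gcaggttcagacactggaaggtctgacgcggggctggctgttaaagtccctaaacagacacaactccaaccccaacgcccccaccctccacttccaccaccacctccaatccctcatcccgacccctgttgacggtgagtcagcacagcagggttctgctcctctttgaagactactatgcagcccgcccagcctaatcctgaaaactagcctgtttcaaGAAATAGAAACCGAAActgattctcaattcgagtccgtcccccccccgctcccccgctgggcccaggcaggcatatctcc
*Gbp7* (chr3:142530086-142530385, plus strand): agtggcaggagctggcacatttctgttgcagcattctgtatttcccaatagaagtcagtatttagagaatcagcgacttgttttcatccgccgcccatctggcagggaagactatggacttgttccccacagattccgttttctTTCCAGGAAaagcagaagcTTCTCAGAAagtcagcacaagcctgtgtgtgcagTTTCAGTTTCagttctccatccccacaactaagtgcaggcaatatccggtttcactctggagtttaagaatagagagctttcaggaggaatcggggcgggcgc
*B2m* (chr2:122147437-122147736, plus strand): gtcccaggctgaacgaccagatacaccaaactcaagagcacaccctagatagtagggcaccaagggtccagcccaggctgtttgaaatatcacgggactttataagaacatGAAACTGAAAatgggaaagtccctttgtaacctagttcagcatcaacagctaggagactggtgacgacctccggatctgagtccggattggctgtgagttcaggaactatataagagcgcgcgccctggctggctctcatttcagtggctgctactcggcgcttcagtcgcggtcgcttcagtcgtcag
In *Tgtp2* and *Irgm2* the GAS letters began 81 and 75 bases before the start, and the ISRE core began 11 bases after the first base of GAS in both. *Tgtp1* and *Gm12185* had the same spacing of 11 bases, and *Tgtp1* and *Tgtp2* are near-identical genes. *Irgm1* held overlapping ISRE cores, which began 30 and 24 bases before the start. In *Gbp7*, GAS began 106 and 87 bases before the start and the ISRE core, on the opposite strand, began at 53. The ISRE core of *B2m* began 139 bases before the start.

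The libraries held 17.6 to 27.4 M reads (median 19.6). *Hoxb13*, a gene of the distal colon, stood at 198 to 570 CPM (read counts scaled to the library total after TMM adjustment) in 11 libraries, while the 6 recovery libraries and WT control replicate 2 held at most 8 reads of it. The labels say colon for every library and the paper describes the recovery RNA as from the distal colon, and whether the segment taken differed between libraries was not tested. It bears on every comparison of controls, recovery and AOM/DSS. It also bears on the genotype comparison in controls, where WT control replicate 2 alone was low. *Hoxd13* held at most 4 reads in the libraries low in *Hoxb13* and at least 3922 reads in the other 11. *Xist*, which females express from the inactive X chromosome, was at 865 to 1742 CPM in 6 libraries: 2 of WT recovery, 2 of *Cldn2*KO recovery and 2 of *Cldn2*KO AOM/DSS. No other library passed 1.16 CPM of *Xist*, so that the genotypes differed in sex-linked expression under AOM/DSS. Without WT control replicate 2, 203 genes were called, 132 of them among the 141. With sex-linked expression as a covariate, 119 genes were called, 98 of them among the 141.

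*Cldn2* was the gene with the largest difference. It lies on the X chromosome (139800828 to 139811386, plus strand, GRCm38). The WT libraries held 680 to 12389 reads of *Cldn2* and the *Cldn2*KO libraries 1 to 12 reads. Summed over the 3 libraries of a group, there were 6320 reads in WT and 8 in *Cldn2*KO controls, 24917 and 27 in recovery, and 9979 and 20 in AOM/DSS. The genotypes did not overlap in any treatment, so the targeted gene was low in every library labelled as knockout. Its log2 difference (the log2 fold change, *Cldn2*KO minus WT, over the 3 treatments) was −9.56 ± 0.32 (SE, edgeR adjusted p = 2.1e-12), or 756-fold.

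GTPases induced by interferon-γ held the largest share of called genes of any list. Of 18 tested, 14 passed, all lower in *Cldn2*KO, and 17 were negative in all 3 treatments. The median log2 fold change of the list was −1.72, against −0.000632 over all genes tested. The members and the lists were drawn up with earlier results of these data known.

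*Irgm1*, a regulatory GTPase of the IRG family, had the smallest adjusted p of the list. It stood at 124, 146 and 154 CPM in WT controls and 46.0, 40.8 and 52.7 CPM in *Cldn2*KO controls. In recovery *Irgm1* stood at 153, 173 and 133 CPM in WT and 72.4, 54.5 and 56.4 CPM in *Cldn2*KO, and in AOM/DSS at 128, 58.6 and 127 CPM and 60.0, 64.7 and 69.9 CPM. The genotypes were apart in controls and recovery, and in AOM/DSS WT replicate 2 lay below every *Cldn2*KO library. Over the 3 treatments *Irgm1* had a log2 difference of −1.20 ± 0.16 (SE, edgeR adjusted p = 0.00301).

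*Irgm2*, another regulatory IRG protein, stood at 100.2, 75.2 and 99.4 CPM in WT controls and 17.5, 17.8 and 21.9 CPM in *Cldn2*KO controls. Its levels were 45.8, 40.2 and 35.7 CPM in WT recovery and 9.26, 8.12 and 12.2 CPM in *Cldn2*KO recovery, and 62.5, 25.1 and 75.4 CPM and 28.2, 32.6 and 37.0 CPM in AOM/DSS. As for *Irgm1*, WT replicate 2 of AOM/DSS was the 1 library that closed the gap. The log2 fold change of *Irgm2* was −1.68 ± 0.24 (SE, edgeR adjusted p = 0.00426). *Irgm2* shares part of its span with *Igtp* on the same strand.

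*Tgtp2*, an effector GTPase of the family, stood at 9.55, 6.87 and 8.94 CPM in WT controls and 0.592, 0.499 and 1.29 CPM in *Cldn2*KO controls. In recovery its values were 5.01, 4.66 and 1.60 CPM in WT and 0.535, 0.510 and 0.443 CPM in *Cldn2*KO. In AOM/DSS they were 2.27, 1.36 and 19.4 CPM and 0.618, 2.37 and 2.18 CPM. The WT AOM/DSS libraries spread widely, with replicate 3 far above the others, and the genotypes overlapped there and in no other treatment. *Tgtp2* had a log2 difference of −2.79 ± 0.47 (SE, edgeR adjusted p = 0.0106). *Gbp6*, *Gbp8* and *Gbp7*, of the guanylate-binding family, had log2 fold changes of −2.15 ± 0.32, −1.75 ± 0.25 and −1.31 ± 0.19 (SE, edgeR adjusted p = 0.00426 for each). *Gbp6* stood at 1.84 to 7.57 CPM in WT AOM/DSS and 1.47 to 1.66 CPM in *Cldn2*KO AOM/DSS, and its genotypes did not overlap in any treatment. *Gbp8* shares its span with *Gbp9* and *Gbp4*.

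**Figure D1:**
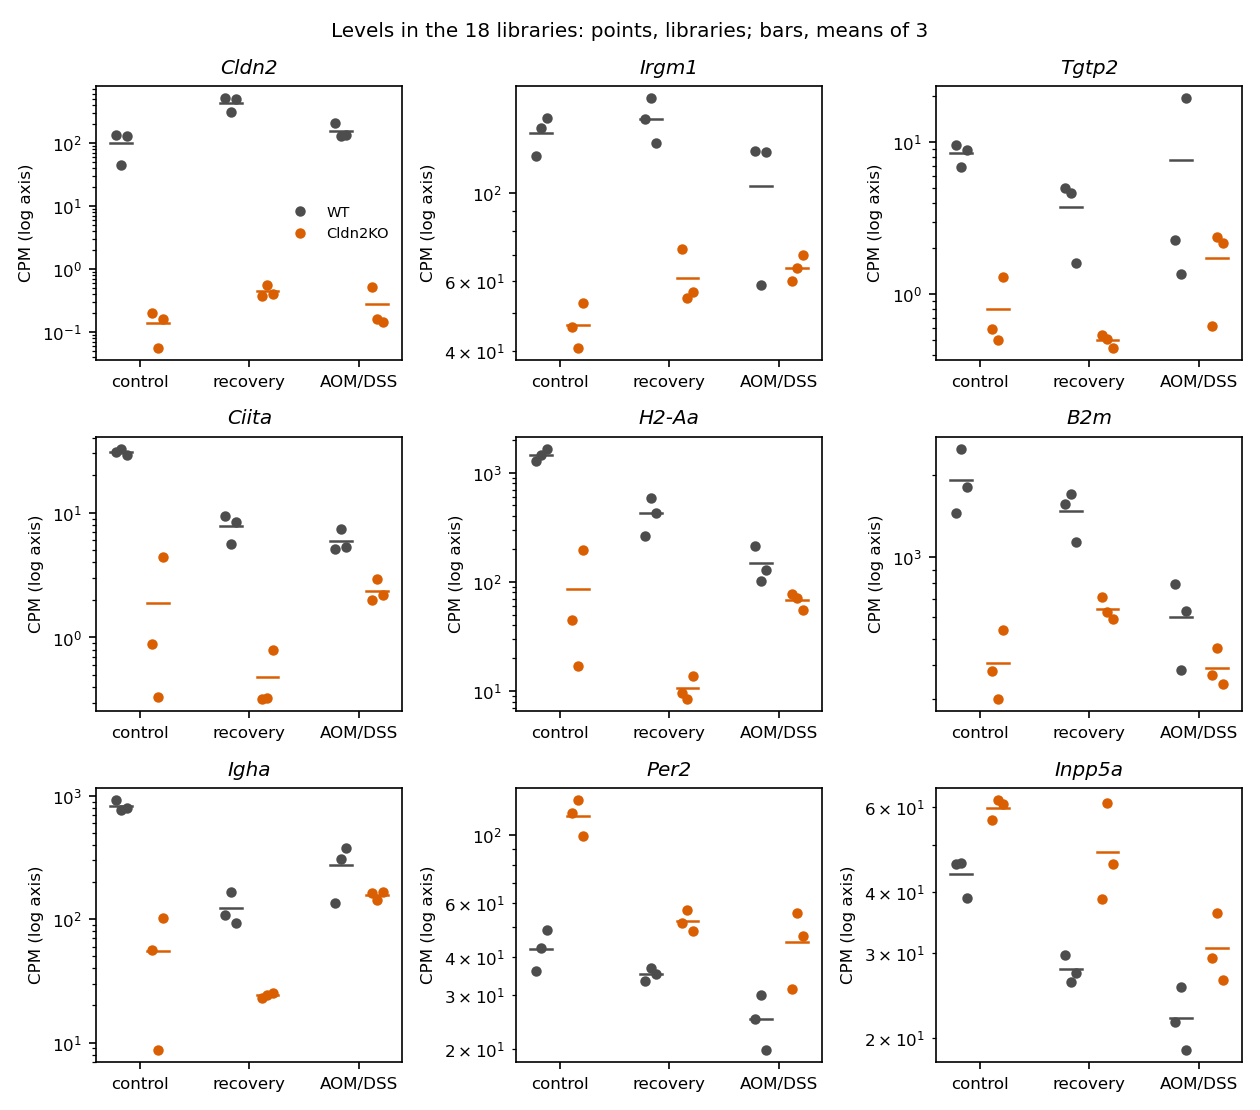
CPM (log axis) of 9 genes in the 18 libraries by treatment and genotype. Points are libraries and bars are means of 3. *Irgm1*, *Tgtp2*, *Ciita*, *H2-Aa*, *B2m* and *Igha* of *Cldn2*KO lie below WT without overlap in controls and recovery, and nearer to WT in AOM/DSS, while *Per2* and *Inpp5a* lie above WT in each treatment.

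Among called genes with a mean of at least 1 CPM, the 12 lower genes whose smallest difference over the 3 treatments was largest were *Tgtp1*, *Tgtp2*, *Gm12185*, *Gm4841*, *Olfr56*, *Ubd*, *Gm4951*, *Cxcl9*, *Iigp1*, *Gm12250*, *Gbp6* and *H2-Q6*. *Ubd* encodes a ubiquitin-like modifier, *Cxcl9* a chemokine that attracts activated T cells, *H2-Q6* a nonclassical MHC class I molecule and *Iigp1* an effector of the IRG family. *Iigp1* stood at 67.6, 42.1 and 81.2 CPM in WT controls and 5.13, 3.11 and 10.0 CPM in *Cldn2*KO controls. Its values in recovery were 69.1, 40.7 and 15.4 CPM and 3.16, 2.37 and 1.82 CPM, and in AOM/DSS 21.98, 7.53 and 55.3 CPM and 4.23, 12.7 and 12.2 CPM. The genotypes of *Iigp1* overlapped in AOM/DSS alone, and its log2 fold change was −2.99 ± 0.50 (SE, edgeR adjusted p = 0.0106). *Ubd* had −2.69 ± 0.54 (SE, edgeR adjusted p = 0.0282), *Cxcl9* had −3.12 ± 0.69 (SE, edgeR adjusted p = 0.044) and *H2-Q6* had −2.24 ± 0.42 (SE, edgeR adjusted p = 0.0198). In AOM/DSS, WT replicate 3 was the highest library for 11 of the 12, *Gm12250* being the exception. *Cxcl9* stood there at 2.76, 1.14 and 27.9 CPM in WT and 1.62, 2.30 and 6.90 CPM in *Cldn2*KO, so that its lower level in *Cldn2*KO under AOM/DSS rested on that library. *Ubd* stood at 19.99, 11.5 and 99.6 CPM and 8.75, 5.48 and 24.7 CPM. Without WT AOM/DSS replicate 3, *Tgtp1*, *Ubd*, *Cxcl9* and *H2-Q6* no longer passed (edgeR adjusted p = 0.0501, 0.0767, 0.13 and 0.0544), with log2 fold changes of −2.99, −2.46, −2.91 and −1.95. Of the 12, *Gbp6* had genotypes apart in all 3 treatments and *Gm4841* and the other 10 in 2 of 3. *Tgtp1*, *Tgtp2* and *Gm12185* lie within or across the span of *Olfr56* on the other strand. *Ifi47*, a called GTPase that was also lower, overlaps *Olfr56* on the same strand, and *Tgtp1* and *Gm12185* overlap each other on 1 strand. The strand setting of the counting is not given in the sources used here. Reads therefore cannot be divided with certainty among these genes, and close copies within the IRG, GBP and H2 families are uncertain in the same way.

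**Figure D2:**
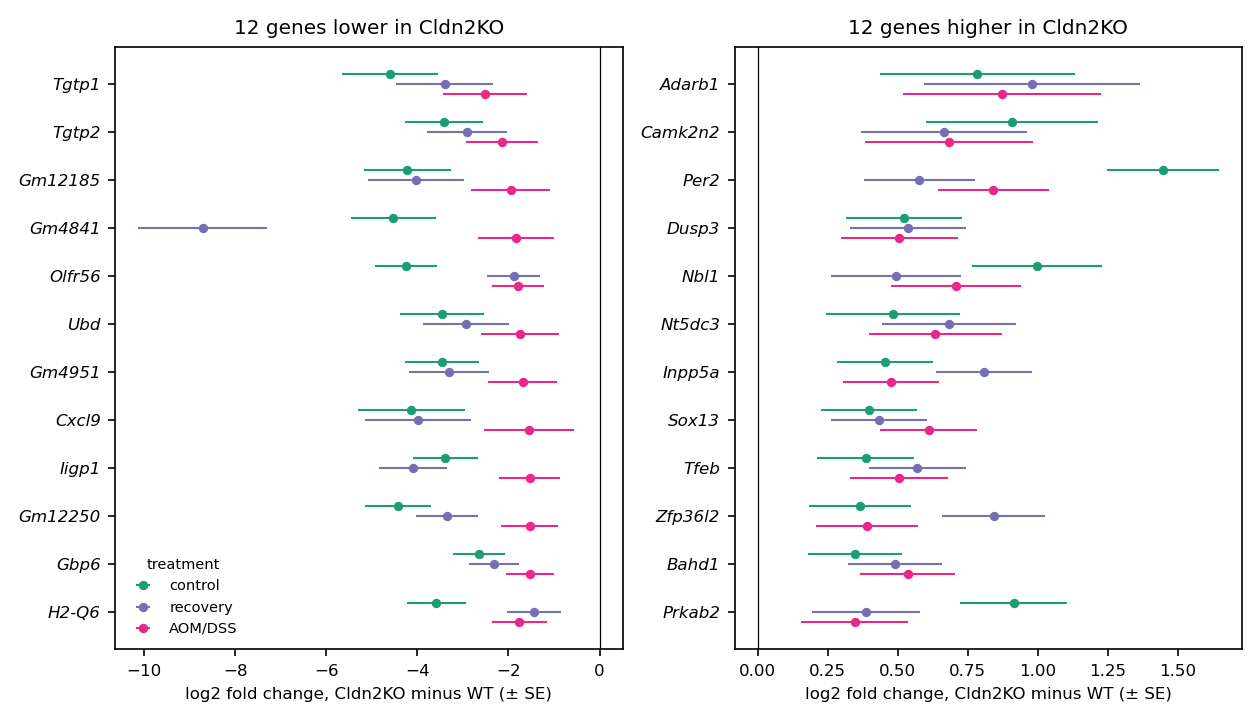
Log2 fold change (*Cldn2*KO minus WT) within each treatment for the 12 lower and the 12 higher genes named by size; points are estimates and lines ± SE. The lower genes lie nearest to 0 in AOM/DSS, except for *H2-Q6*, which lies nearest in recovery. No *Cldn2*KO recovery library held a read of *Gm4841*, so its value in recovery is set by the fit and is no bound.

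Of 15 genes of MHC class II presentation tested, 7 passed, all lower, 12 were negative in all 3 treatments, and the median log2 fold change was −1.29. *Ciita*, the master regulator of class II transcription, stood at 30.5, 32.2 and 29.2 CPM in WT controls and 0.887, 0.333 and 4.41 CPM in *Cldn2*KO controls. In recovery *Ciita* stood at 9.40, 5.59 and 8.399 CPM and 0.321, 0.325 and 0.787 CPM, and in AOM/DSS at 5.08, 7.35 and 5.34 CPM and 1.997, 2.92 and 2.18 CPM. Every *Cldn2*KO library lay below every WT library of its treatment. The log2 fold change of *Ciita* was −3.09 ± 0.49 (SE, edgeR adjusted p = 0.00828).

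*H2-Aa*, the α chain of a class II molecule, stood at 1290, 1435 and 1629 CPM in WT controls and 44.5, 16.8 and 194 CPM in *Cldn2*KO controls. In recovery *H2-Aa* stood at 265, 588 and 428 CPM and 9.64, 8.44 and 13.8 CPM, and in AOM/DSS at 213, 100.7 and 129 CPM and 78.0, 70.5 and 54.7 CPM. No genotypes overlapped, and the gap was narrowest in AOM/DSS. *H2-Aa* had a log2 difference of −3.60 ± 0.66 (SE, edgeR adjusted p = 0.0177). *H2-DMa*, which helps to load peptide, had −2.57 ± 0.46 (SE, edgeR adjusted p = 0.0129), and *H2-Eb1*, a class II β chain, had −3.10 ± 0.55 (SE, edgeR adjusted p = 0.0134). Both were apart in all 3 treatments, and *H2-DMa* overlaps *Brd2* on the other strand.

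For MHC class I and the immunoproteasome, 11 of 25 genes tested passed, all lower, and 19 were negative in all 3 treatments. The list median was −0.61. *B2m*, the light chain of class I molecules, stood at 1448, 2482 and 1803 CPM in WT controls and 383, 301 and 539.7 CPM in *Cldn2*KO controls. In recovery *B2m* stood at 1565, 1708 and 1140 CPM and 716, 631 and 590.5 CPM, and in AOM/DSS at 799, 384 and 632 CPM and 369.8, 463 and 341 CPM, where the genotypes overlapped. *B2m* had a log2 difference of −1.34 ± 0.23 (SE, edgeR adjusted p = 0.0106). *Nlrc5*, which drives class I transcription, had −2.48 ± 0.45 (SE, edgeR adjusted p = 0.0151). *Tap1*, of the peptide transporter, had −1.63 ± 0.29 (SE, edgeR adjusted p = 0.0125), and *Psmb9*, of the immunoproteasome, had −1.45 ± 0.25 (SE, edgeR adjusted p = 0.012); these 2 genes overlap on opposite strands. On chromosome 17 between 33 and 38 Mb, which holds the MHC, 16 of 173 genes tested passed.

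Of 38 antiviral genes induced by interferon, 11 passed, all lower. All 38 had a negative log2 fold change, 34 were negative in each treatment, and the median was −1.11. *Irf9*, the DNA-binding part of the complex on ISRE, stood at 83.4, 73.3 and 86.2 CPM in WT controls and 36.6, 35.8 and 41.01 CPM in *Cldn2*KO controls. In recovery *Irf9* stood at 49.3, 86.7 and 53.9 CPM and 27.7, 15.7 and 40.1 CPM, and in AOM/DSS at 106, 55.1 and 83.0 CPM and 54.4, 49.9 and 58.9 CPM. The genotypes were apart in controls and recovery and overlapped in AOM/DSS, and *Irf9* had a log2 difference of −0.95 ± 0.17 (SE, edgeR adjusted p = 0.013). *Parp9* and *Dtx3l*, whose proteins act as a complex and whose genes overlap head to head, had −0.88 ± 0.13 (SE, edgeR adjusted p = 0.00426) and −1.02 ± 0.18 (SE, edgeR adjusted p = 0.0119). *Cmpk2*, a mitochondrial nucleotide kinase, had −1.26 ± 0.22 (SE, edgeR adjusted p = 0.0119).

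Of 22 interferon receptors and signalling genes, 6 passed, all lower, among them *Ciita*, *Irf9*, *Nlrc5* and *Irf1*, and the list median was −0.20. *Ifng* was too low to be tested. It had 0, 5 and 7 reads in WT controls and none in *Cldn2*KO controls, 11, 14 and 3 reads in WT recovery and 1, 4 and 0 in *Cldn2*KO recovery, and 2, 0 and 10 and 0, 1 and 1 in AOM/DSS. At these counts no difference in *Ifng* was tested. Over the interferon and MHC lists together, 44 of 112 genes tested passed, all lower, and 86 were negative in each treatment. Of the 44, all were apart in controls, 43 in recovery and 8 under AOM/DSS. Over all genes tested, the genotypes were apart in either direction for 22.2% in controls, 23.9% in recovery and 11.3% under AOM/DSS.

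*Tnfsf10*, which encodes the death ligand TRAIL and is induced by interferon, had the smallest adjusted p after *Cldn2*; it is named after its values were seen. It stood at 68.5, 80.2 and 59.2 CPM in WT controls and 10.2, 9.49 and 8.88 CPM in *Cldn2*KO controls. In recovery *Tnfsf10* stood at 48.8, 26.6 and 33.0 CPM and 13.4, 8.72 and 11.2 CPM, and in AOM/DSS at 34.0, 30.6 and 70.1 CPM and 16.7, 21.7 and 21.1 CPM. The genotypes were apart throughout, with a log2 difference of −1.90 ± 0.24 (SE, edgeR adjusted p = 0.0026). *Cd274*, which encodes the checkpoint ligand PD-L1 and was likewise named afterwards, had −1.26 ± 0.27 (SE, edgeR adjusted p = 0.0327). *Zbp1*, a sensor of nucleic acids that can start necroptosis, was the 1 gene of 20 in the necroptosis and pyroptosis list that passed. It had −1.79 ± 0.40 (SE, edgeR adjusted p = 0.0479), and −0.39 ± 0.50 (SE) within AOM/DSS. *Cd274* was called in 15 and *Zbp1* in 14 of 33 alternative fits, and both calls were lost on leaving out any 1 of several libraries. None of 28 apoptosis genes passed by edgeR (9 at an unadjusted p under 0.05, against 15.98% of all genes tested). Of 29 TNF and NF-κB genes, *Cxcl9* and *Cxcl10* passed (7 at an unadjusted p under 0.05 by edgeR). The list as a whole was not lower throughout. Its median log2 fold change was −0.59 for controls and −0.70 under AOM/DSS, with 23 of 29 genes negative each time. For recovery the median was 0.50, with 8 genes negative, while *Cxcl9* and *Cxcl10* had −3.98 and −2.04. Over the 3 treatments *Cxcl10*, another chemokine for activated T cells, had −1.73 ± 0.33 (SE, edgeR adjusted p = 0.0198). *Cxcl10* no longer passed without WT AOM/DSS replicate 3 (−1.52, edgeR adjusted p = 0.0502), by limma-voom or with the smooth muscle level as a covariate.

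Immunoglobulin genes were among the genes called. Of 125 antigen receptor genes and segments tested, 19 passed, all lower; near-identical segments share reads, so single V segments are not described. Of 15 plasma and B cell markers, 4 passed, all lower, and the list median was −1.20. *Igha*, the constant region of IgA, stood at 918, 769 and 802 CPM in WT controls and 55.8, 8.71 and 101.4 CPM in *Cldn2*KO controls. In recovery *Igha* stood at 109, 165 and 92.6 CPM and 22.97, 24.2 and 25.4 CPM, and in AOM/DSS at 135, 309 and 376 CPM and 162, 142 and 166 CPM. WT replicate 1 of AOM/DSS lay below its *Cldn2*KO counterparts, and the log2 fold change of *Igha* was −2.35 ± 0.48 (SE, edgeR adjusted p = 0.0299). *Jchain*, which joins IgA into dimers, had −2.36 ± 0.50 (SE, edgeR adjusted p = 0.0345). *Mzb1*, a chaperone of plasma cells, had −2.06 ± 0.45 (SE, edgeR adjusted p = 0.0394). *Derl3*, of the secretory pathway, had −1.20 ± 0.26 (SE, edgeR adjusted p = 0.0331). Within AOM/DSS *Jchain* had −0.43 ± 0.50, *Mzb1* −1.16 ± 0.70 and *Derl3* −0.71 ± 0.40 (SE), and the genotypes of *Jchain* overlapped there. None of the 4 markers was called in every fit that left out 1 library.

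Markers of lymphocytes were compared beside these groups. Of 21 T and NK cell markers none passed by edgeR (19 at an unadjusted p under 0.05, smallest adjusted p 0.0546), while all 21 had a negative log2 fold change, 19 in each treatment, with a median of −1.66. Over the 22 markers listed, the summed level was 24.6, 250.4 and 38.0 CPM in WT controls and 7.10, 4.66 and 21.7 CPM in *Cldn2*KO controls. The 250.4 CPM was of WT control replicate 2, which held 5 reads of *Hoxb13*. Whether the colon segment bears on this value was not tested. In recovery the sums were 94.0, 279 and 93.8 CPM and 65.6, 66.9 and 47.0 CPM, and in AOM/DSS 23.2, 20.1 and 55.7 CPM and 23.3, 12.2 and 20.3 CPM. The genotypes were apart in controls and recovery and overlapped in AOM/DSS, as did the summed GTPases. Plasma and B cell markers summed to 2477 to 2699 CPM in WT controls against 263 to 679 CPM in *Cldn2*KO controls, to 528 to 708 CPM against 304 to 400 CPM in recovery, and to 834 to 1321 CPM against 726 to 955 CPM in AOM/DSS.

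With the T and NK cell marker level of each library as a covariate, *Cldn2* was the 1 gene called, and the median log2 fold change of the other 117 lower genes was −1.27 in place of −1.68. With the plasma and B cell marker level as a covariate, *Cldn2* was again the 1 gene called, and the median was −1.19. At an unadjusted p under 0.05, 140 and 133 of the 141 remained. Both covariates were chosen after the data were seen, and both differ between the genotypes. The plasma and B cell level includes *Igha*, *Jchain*, *Mzb1* and *Derl3*, which are among the 141 genes. That covariate is thus built in part from called genes, and the 141 were selected on these same libraries. The part of lymphocyte number in the lower genes was not tested beyond these fits.

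**Figure D3:**
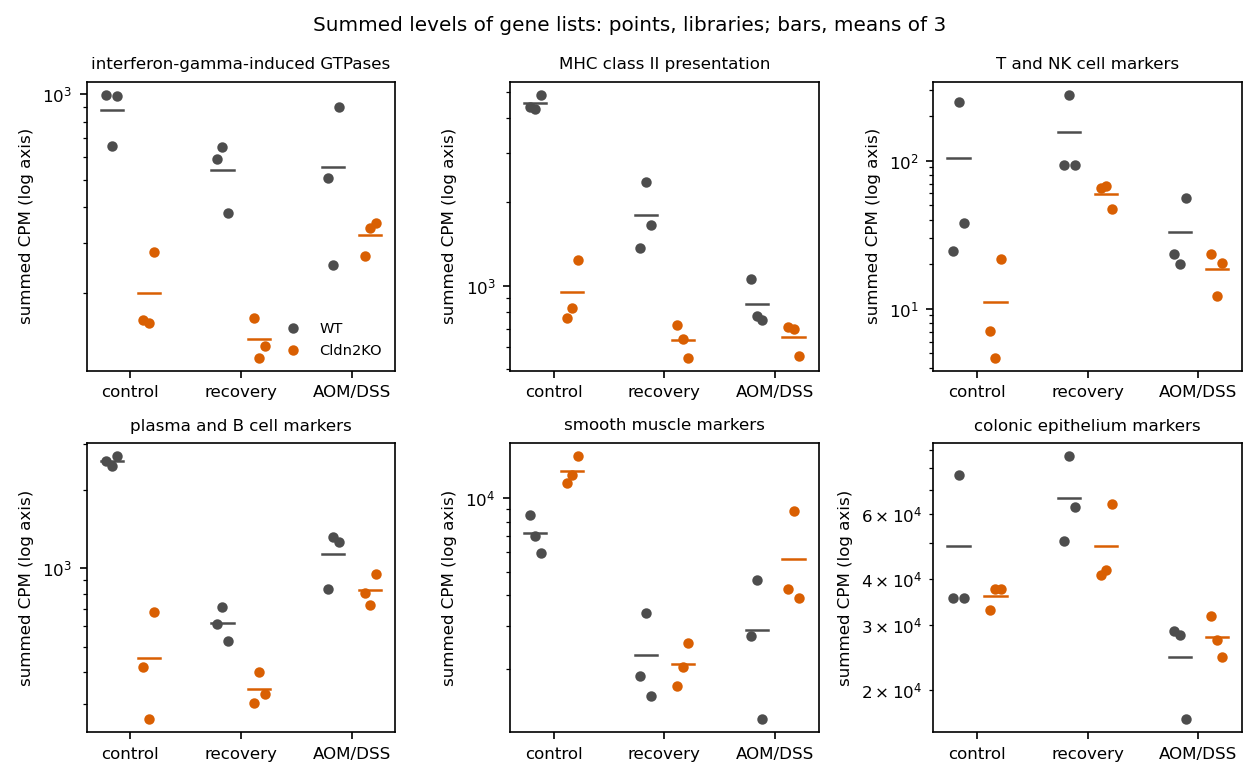
Summed CPM (log axis) of 6 gene lists in the 18 libraries; points are libraries and bars are means of 3. GTPases, T and NK cell markers and plasma and B cell markers of *Cldn2*KO lie below WT in controls and recovery and overlap WT in AOM/DSS, while smooth muscle markers lie above WT in controls, at 11530 to 14810 CPM against 5954 to 8543 CPM.

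Other markers of tissue makeup had no called gene. All 16 smooth muscle markers had a positive log2 fold change (9 at an unadjusted p under 0.05), with a median of 0.89 in controls and 1.03 in AOM/DSS but −0.13 in recovery. With the smooth muscle level as a covariate, 63 genes were called, 48 of them among the 141, and the median log2 fold change of the 117 lower genes other than *Cldn2* was −1.71 in place of −1.68, with all 141 at an unadjusted p under 0.05. Of the 23 higher genes *Per2* and *Arl13a* were still called with that covariate, and the median of the 23 was 0.565 in place of 0.58. All 15 enteric neuron and glia markers had a positive log2 fold change too (2 at an unadjusted p under 0.05), 7 in each treatment, with a median of −0.04 in controls, one of 0.49 for recovery and one of 0.93 under AOM/DSS. Their summed level in recovery was 102 to 133 CPM in WT and 134 to 172 CPM in *Cldn2*KO, and the genotypes overlapped in controls and AOM/DSS. The part of these tissues in the higher genes was not tested beyond the smooth muscle covariate. Of 17 macrophage and dendritic cell markers 8 were negative in each treatment, with a median of −0.56 (8 at an unadjusted p under 0.05 by edgeR). Colonic epithelium markers had a median of 0.12 (2 of 20 at an unadjusted p under 0.05). Of 30 proliferation genes none passed by edgeR (24 at an unadjusted p under 0.05, against 15.98% of all genes tested), but 28 were negative in each treatment and the median was −0.71. *Mki67*, a marker of cycling cells named after its values were seen, had −0.68 ± 0.27 (SE, edgeR adjusted p = 0.227).

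The 23 genes higher in *Cldn2*KO had smaller and more even differences. Their log2 fold changes ran from 0.39 to 2.24 with a median of 0.58, and the medians within treatments were 0.48, 0.68 and 0.54 for controls, recovery and AOM/DSS. Among those with a mean of at least 1 CPM, the 12 with the largest smallest difference were *Adarb1*, *Camk2n2*, *Per2*, *Dusp3*, *Nbl1*, *Nt5dc3*, *Inpp5a*, *Sox13*, *Tfeb*, *Zfp36l2*, *Bahd1* and *Prkab2*. *Per2*, a repressor of the circadian clock, stood at 35.9, 42.6 and 49.1 CPM in WT controls and 118, 130 and 99.6 CPM in *Cldn2*KO controls. In recovery *Per2* stood at 33.2, 36.9 and 35.2 CPM and 51.6, 56.9 and 48.5 CPM, and in AOM/DSS at 25.1, 30.0 and 19.8 CPM and 31.5, 55.8 and 47.0 CPM. The genotypes were apart in each treatment, and *Per2* had a log2 difference of 0.96 ± 0.14 (SE, edgeR adjusted p = 0.00426). It was the 1 gene of 18 in the circadian list that passed (6 at an unadjusted p under 0.05 by edgeR), and the list median was 0.37. Of the 18, 15 had a positive log2 fold change, 7 of them in each treatment. The time of day of collection is not given in the sources used here.

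*Inpp5a*, a phosphatase that ends inositol trisphosphate signals, stood at 45.7, 46.0 and 38.9 CPM in WT controls and 56.4, 61.9 and 60.8 CPM in *Cldn2*KO controls. In recovery *Inpp5a* stood at 29.7, 26.1 and 27.3 CPM and 38.8, 61.1 and 45.7 CPM, and in AOM/DSS at 21.6, 25.5 and 18.9 CPM and 29.2, 36.2 and 26.4 CPM. It was apart throughout, with a log2 difference of 0.58 ± 0.10 (SE, edgeR adjusted p = 0.012). *Nbl1*, a secreted antagonist of bone morphogenetic proteins, was apart in each treatment as well and had 0.73 ± 0.14 (SE, edgeR adjusted p = 0.0175). *Adarb1*, an enzyme that edits adenosine to inosine in RNA, had 0.87 ± 0.20 (SE, edgeR adjusted p = 0.0463), and *Dusp3*, a phosphatase of MAP kinases, had 0.52 ± 0.11 (SE, edgeR adjusted p = 0.0394). *Tfeb*, a regulator of lysosome genes, had 0.49 ± 0.10 (SE, edgeR adjusted p = 0.0266), and *Prkab2*, of AMP-activated kinase, had 0.55 ± 0.12 (SE, edgeR adjusted p = 0.0427). *Zfp36l2*, which destabilises messenger RNA, had 0.53 ± 0.11 (SE, edgeR adjusted p = 0.0331). *Sox13*, a transcription factor, had 0.48 ± 0.10 (SE, edgeR adjusted p = 0.028), and *Bahd1*, a chromatin silencing factor, had 0.46 ± 0.10 (SE, edgeR adjusted p = 0.0301). *Camk2n2*, an inhibitor of a calmodulin-dependent kinase, had 0.75 ± 0.17 (SE, edgeR adjusted p = 0.0431), and *Nt5dc3* had 0.60 ± 0.13 (SE, edgeR adjusted p = 0.0403). Of the 23 genes, *Per2* alone was in a list. With the smooth muscle level as a covariate *Per2* alone of these 12 was still called. *Per2* was called in 29 of 33 alternative fits, *Inpp5a* and *Nbl1* in 28 each, and the other 9 in 8 to 19.

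Of the 141 genes, 33 were apart in all 3 treatments in 1 direction, 10 higher and 23 lower, against 52 of all genes tested (0.307%). The genotypes were apart for 131 in controls, 122 in recovery and 53 under AOM/DSS. The median log2 fold change of the lower genes went from −2.26 in controls to −1.76 in recovery and −0.83 under AOM/DSS, and AOM/DSS held the smallest difference for 97 of 118. These values describe genes chosen on the 3 treatments together. When dependence of the genotype difference on treatment was tested, 4 genes passed by edgeR (0.0236%; 2139 at an unadjusted p under 0.05, or 12.6%), none of them among the 141. The smallest adjusted p of this test among the 141 was 0.0924. Without *Cldn2*KO control replicate 3, edgeR called 13 genes, 7 of them among the 141. DESeq2 called dependence on treatment in 455 genes, 21 among the 141, and limma-voom in 1193, 64 among the 141.

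**Figure D4:**
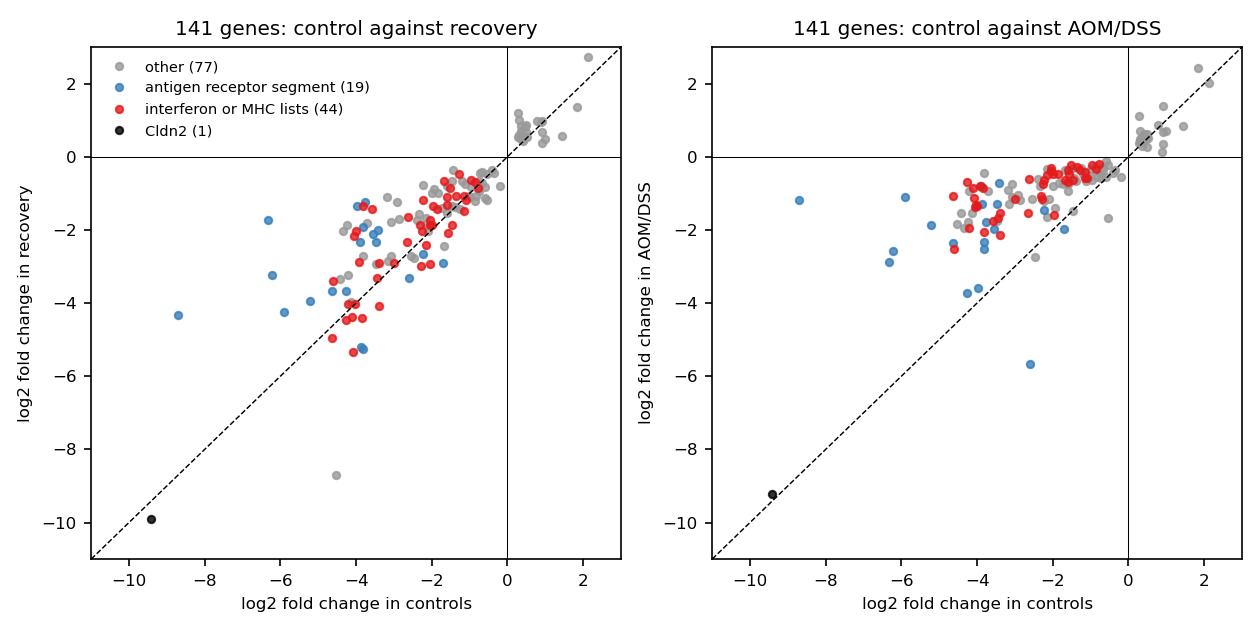
Log2 fold change (*Cldn2*KO minus WT) of the 141 called genes in recovery (left) and AOM/DSS (right) against controls; the dashed line marks equal differences. All points lie below 0 on both axes or above 0 on both axes, and in AOM/DSS most lower genes lie above the line, nearer to 0 than in controls.

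Controls and recovery were both needed for the calls at the adjusted threshold. Without the control libraries *Cldn2* was the 1 gene called, with a median log2 fold change of −1.23 over the other lower genes. Without the recovery libraries *Cldn2* was again the 1 gene called, with a median of −1.67. At an unadjusted p under 0.05 by edgeR, 130 of the 141 remained without controls and 140 without recovery. These fits held fewer libraries, so a lost call is not an absent difference. Without the AOM/DSS libraries 172 genes were called, 95 of them among the 141. With each library left out in turn, 50 to 203 genes were called and 41 of the 141 were called every time. Those 41 included *Irgm1*, *Irgm2*, *Gbp6*, *Gbp7*, *Gbp8*, *Iigp1*, *Tgtp2*, *Irf9*, *Ciita*, *Nlrc5*, *B2m*, *Tap1*, *Psmb9*, *H2-DMa*, *H2-Eb1* and *Tnfsf10*, and 4 higher genes, *Arl13a*, *Per2*, *Inpp5a* and *Nbl1*.

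**Figure D5:**
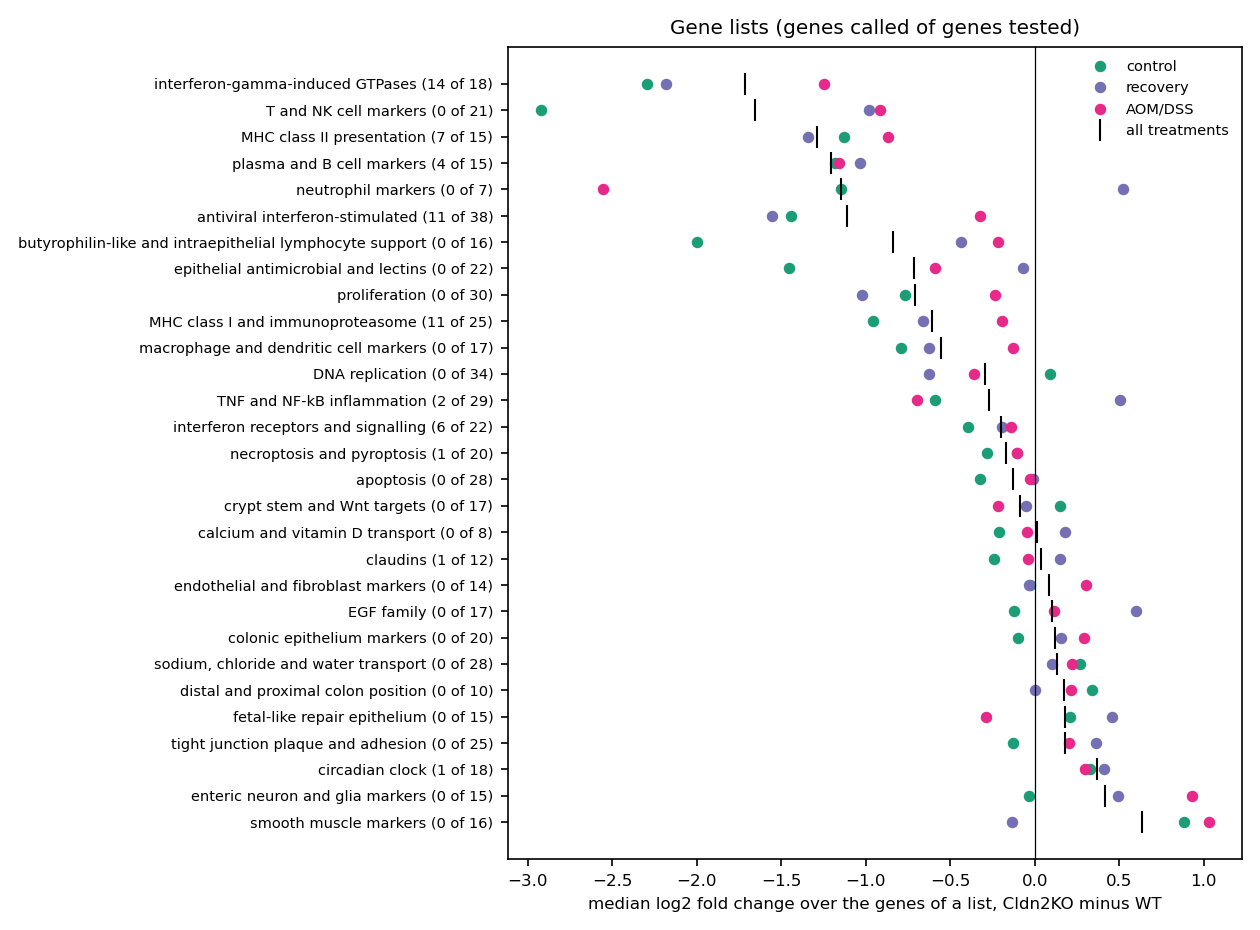
Median log2 fold change (*Cldn2*KO minus WT) over the tested genes of each list within the treatments (coloured points) and over all treatments (black bars), with genes called of genes tested beside each name. GTPases induced by interferon-γ (14 of 18 called) and T and NK cell markers (0 of 21) had the lowest medians over all treatments, and smooth muscle markers the highest. Within treatments the order differed, with neutrophil markers lowest in AOM/DSS at −2.56.

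Near *Cldn2*, none of 49 genes tested within 5 Mb passed by edgeR (9 at an unadjusted p under 0.05, a share near the 15.98% of all genes tested). The smallest adjusted p was 0.101, for *Ripply1*, which lies beside *Cldn2*, had a positive log2 fold change in each treatment (1.19 ± 0.33 over all, SE) and is named after its values were seen. Of 510 genes tested on the X chromosome, 3 passed: *Cldn2*, *Arl13a* and *Trmt2b*. The latter genes, also named afterwards, lie 5.59 and 5.52 Mb from *Cldn2* and 14.3 kb from each other. *Arl13a*, of the ARF-like GTPase family, was low throughout, at 0 to 0.219 CPM in WT and 0.375 to 0.881 CPM in *Cldn2*KO, yet apart in each treatment. It had the largest log2 fold change of the higher genes, 2.24 ± 0.31 (SE, edgeR adjusted p = 0.00388), and overlaps *Nox1* on the other strand. *Trmt2b*, a methyltransferase of transfer RNA, stood at 42.9 to 78.1 CPM in WT and 37.6 to 65.4 CPM in *Cldn2*KO. Its log2 difference was −0.39 ± 0.08 (SE, edgeR adjusted p = 0.0356). With each library left out in turn *Arl13a* was called every time, and *Trmt2b* was not.

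Of 12 claudins tested, *Cldn2* alone passed. Per kilobase of transcript, *Cldn7* and *Cldn3* were the most abundant, at WT means of 286 and 202 CPM per kb and *Cldn2*KO means of 279 and 251 CPM per kb, while *Cldn2* stood at 69.1 CPM per kb in WT. *Cldn3*, a sealing claudin, was the 1 claudin with a positive sign in each treatment, with a log2 difference of 0.31 ± 0.14 (SE, edgeR adjusted p = 0.271). *Cldn10*, another channel-forming claudin at a mean of 0.782 CPM, was negative in each treatment and had the smallest p after *Cldn2*, at −0.85 ± 0.33 (SE, edgeR adjusted p = 0.21). *Cldn15*, which also forms a cation channel, had −0.68 ± 0.34 (SE, edgeR adjusted p = 0.343). Among WT controls *Cldn15* stood at 34.8, 207 and 41.6 CPM, highest in replicate 2, which held 5 reads of *Hoxb13*. None passed by edgeR among 25 tight junction plaque and adhesion genes, 28 genes of sodium, chloride and water transport and 8 genes of calcium and vitamin D transport (5, 4 and 0 at an unadjusted p under 0.05, against 15.98% of all genes tested), and the list medians were 0.18, 0.13 and 0.01.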

How the data were processed

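Total RNA of mouse colon was sequenced in 18 libraries on 2 lanes each. The authors deposited raw counts of reads per gene, with no normalization. The submitters' processing notes name HISAT2, featureCounts of Subread and GRCm38, whereas the paper's methods name TopHat2. Versions, annotation release and strand setting are not given in the sources used here. The 36 lane columns were summed per library, to 17.6 to 27.4 M reads. Of 47729 genes, 47310 were matched to GENCODE M21 by identifier. Lanes of a library differed by 1.08 to 1.18 chi-square per degree of freedom and replicate pairs by at least 11.9, so no library was a copy of another of its group.

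Genes were filtered with filterByExpr (30792 dropped, 16937 tested), scaled by TMM and tested with edgeR 4.0.16 (R 4.3.3, robust quasi-likelihood, Benjamini-Hochberg over all genes tested, threshold 0.05) on genotype with treatment additive. The dependence on treatment was tested in a fit with 1 mean for each of the 6 groups, which also gave the differences within treatments. The common dispersion was 0.108. CPM are counts scaled to the library total after TMM adjustment. The code was tested on simulated data. The members and gene lists were chosen with earlier results of these data known. Named genes were *Cldn2*, then up to 12 called genes per direction of at least 1 CPM mean with the largest smallest absolute difference over the treatments, up to 4 called genes of each list by adjusted p, and the claudins; genes named outside this rule are marked. Some of the results under this rule are not reported here. No set test was run. Alternatives were other scalings and filters, DESeq2 1.42.0, limma-voom (limma 3.58.1), covariates, a replicate block, and leaving out treatments or single libraries. Motif searches used RefSeq promoter windows of GRCm38.p6.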

Additional observations from a re-analysis of the deposited data

Results flagged for a closer look

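For 4 genes the genotype difference itself depended on treatment by edgeR's quasi-likelihood test, and these genes are named after their values were seen. *Ddah1*, which breaks down an inhibitor of nitric oxide synthase, had an adjusted p of 0.0211 for this dependence, with log2 fold changes of −2.26 ± 0.22, −0.08 ± 0.21 and −0.03 ± 0.21 (SE) for controls, recovery and AOM/DSS. It stood at 71.3, 52.7 and 72.5 CPM in WT controls and 15.9, 10.2 and 14.9 CPM in *Cldn2*KO controls. *Nfkbiz*, a nuclear regulator of NF-κB targets, had an adjusted p of 0.0422 and log2 fold changes of −1.36 ± 0.16, 0.34 ± 0.16 and −0.70 ± 0.16 (SE) in the same order. *Gm28438*, a pseudogene, had an adjusted p of 0.0422 and differed in recovery, at 6.67, 10.3 and 6.45 CPM in WT and 0.750, 0.510 and 0.394 CPM in *Cldn2*KO. *Ighv5-16*, an immunoglobulin segment, had an adjusted p of 0.0423 at a mean of only 0.297 CPM, and reads of such segments are uncertain. None of the 4 passed the common test.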

How the results depend on the processing

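All 141 genes kept the direction of the common difference in each of 33 alternatives in which they were tested, while *Cldn2* was the 1 gene called in all of them. The genes called numbered 611 with DESeq2 (598 of one sign), 599 with limma-voom (562; of the 141, 132 were called and 119 of these had one sign in all treatments), 254 with the average of the differences within treatments (236), 63 with the smooth muscle level as a covariate (62), and 1 without the control libraries, without the recovery libraries, and with either lymphocyte marker level as a covariate, the last chosen after seeing the data. Genes dependent on treatment numbered 455 with DESeq2, 1193 with limma-voom and 7 with RLE scaling, without a filter or with a filter at 1 CPM, against 4. The causes were not tested. Leaving out 1 library gave 50 to 203 genes called, all but at most 1 of one sign, and 0 to 40 dependent on treatment (40 without *Cldn2*KO recovery replicate 1, none of them among the 141). The count moved by over 1.5 times without *Cldn2*KO control replicates 1 (50) and 2 (62), WT control replicate 3 (68), *Cldn2*KO recovery replicates 1 (88), 2 (72) and 3 (93), and WT recovery replicates 1 (84) and 2 (78).

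With a replicate block on the control libraries, 114 genes were called, 109 of them among the 141, and *Cldn14*, not called, had a log2 fold change of 0.076. Same-numbered control libraries did not deviate together (correlations 0.157, 0.00234 and 0.0794), so the numbers were not taken to pair them.

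Log2 fold changes of claudins that were not called changed sign. With limma-voom *Cldn5* was at −0.023 and *Cldn8* at −0.058. With the sex covariate *Cldn7* was at −0.0021. With the smooth muscle covariate *Cldn1* was at −0.30, *Cldn5* at −0.014 and *Cldn23* at 0.12. Without controls *Cldn12* was at −0.031 and *Cldn23* at 0.15. Without recovery *Cldn4* was at −0.45, *Cldn7* at −0.15 and *Cldn8* at −0.072. Without AOM/DSS *Cldn7* was at −0.052 and *Cldn14* at 0.069. With the T and NK cell covariate *Cldn8* was at −0.85, *Cldn12* at −0.11, *Cldn15* at 0.097 and *Cldn23* at 0.22. With the plasma and B cell covariate *Cldn8* was at −0.073, *Cldn12* at −0.074 and *Cldn23* at 0.13. Leaving out 1 library gave −0.088 to 0.65 for *Cldn4*, −0.049 to 0.086 for *Cldn7*, −0.035 to 0.37 for *Cldn8*, −0.0095 to 0.072 for *Cldn12*, −0.30 to 0.098 for *Cldn14* and −0.13 to 0.031 for *Cldn23*.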
